A study of Mus musculus with 6 samples.

Results

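The genes examined here are the E2F transcription factors and the RB family of pocket proteins, taken by gene symbol from the count tables. They are E2f1, E2f2, E2f3, E2f4, E2f5, E2f7 and E2f8 with Rb1, Rbl1 and Rbl2, which makes 10 genes of 24391 annotated. All 10 passed the filter on low counts, which left 12664 genes tested.

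The RNA came from mRPMaxKO, a mouse line established from an RPMax-/- lung tumour of mixed 129/SvJ; C57BL/6 background, kept below passage 20. In this nomenclature RP stands for loss of Rb1 and p53, the lesions that define mouse models of small cell lung cancer, and by the labels both groups carry those losses and the loss of Max. The 3 MAX restored libraries came from a polyclonal, puromycin-selected population with a doxycycline-inducible lentiviral vector that gives back MAX, the dimer partner of MYC, and the other 3 libraries are labelled Control. The treatment protocol, worded alike for all 6, gives 4 days of doxycycline. It is not stated whether the Control cells carried an empty vector or received the drug, so the groups may differ in more than MAX. Nor is it stated that libraries within a group were grown as separate cultures, and p-values cover the spread between these libraries alone, which may be technical. The question was how transcript levels change when MAX is put back.

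E2F factors bind DNA with a DP partner and control genes of DNA replication and cell division. E2F1, E2F2 and E2F3 mainly activate, E2F4 and E2F5 mainly repress together with pocket proteins, and the atypical E2F7 and E2F8 repress without DP or pocket proteins. The pocket proteins RB, p107 (Rbl1) and p130 (Rbl2) hold E2Fs in check until cyclin-dependent kinases phosphorylate them. In cells that lack RB, p107 and p130 are the remaining pocket proteins. p107 and several E2F genes are themselves E2F targets, whereas p130 is best known from resting cells.

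Promoter windows from RefSeq (GRCm38.p6), 250 bases before to 50 bases after the start site, were found for E2f1, E2f2, E2f3, E2f7, E2f8, Rbl1 and Rbl2, with a pair of start sites each for E2f2 and E2f3, and were searched because several of these genes are known E2F targets. This build differs from mm9, the build of the count tables. Both strands were searched for 8 E2F words (TTTCCCGC, TTTCGCGC, TTTGCCGC, TTTGGCGC, TTTCCCGG, TTTCGCGG, TTTGCCGG and TTTGGCGG), for the E-box CACGTG that MYC and MAX dimers bind, and for TTTGAA, the core of the element bound by the MuvB complex. Capitals mark the matches, and the windows are shown because they hold an E2F word, an E-box or, for E2f8, the MuvB element close to the start site.
E2f2 upstream, chr4:136172024-136172323, plus strand: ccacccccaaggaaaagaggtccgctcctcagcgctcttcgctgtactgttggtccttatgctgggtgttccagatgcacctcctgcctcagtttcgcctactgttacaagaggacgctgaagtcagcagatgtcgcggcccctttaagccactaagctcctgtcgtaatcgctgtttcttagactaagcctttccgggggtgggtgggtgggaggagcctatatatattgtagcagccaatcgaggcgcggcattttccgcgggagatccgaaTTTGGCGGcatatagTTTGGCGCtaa
E2f3 upstream, chr13:29986014-29986313, minus strand: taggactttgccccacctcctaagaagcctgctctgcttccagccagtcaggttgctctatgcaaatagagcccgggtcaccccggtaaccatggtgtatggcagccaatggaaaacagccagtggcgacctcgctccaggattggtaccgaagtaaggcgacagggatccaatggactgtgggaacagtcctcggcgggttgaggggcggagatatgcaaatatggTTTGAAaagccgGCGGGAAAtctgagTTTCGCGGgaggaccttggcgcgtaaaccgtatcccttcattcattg
E2f3 downstream, chr13:29984342-29984641, minus strand: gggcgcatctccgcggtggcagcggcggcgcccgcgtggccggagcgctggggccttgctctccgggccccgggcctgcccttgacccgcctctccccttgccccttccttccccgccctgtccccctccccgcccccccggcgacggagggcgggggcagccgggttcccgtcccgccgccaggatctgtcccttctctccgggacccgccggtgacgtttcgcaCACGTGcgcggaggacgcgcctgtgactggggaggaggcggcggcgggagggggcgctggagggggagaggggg
E2f7, chr10:110745189-110745488, plus strand: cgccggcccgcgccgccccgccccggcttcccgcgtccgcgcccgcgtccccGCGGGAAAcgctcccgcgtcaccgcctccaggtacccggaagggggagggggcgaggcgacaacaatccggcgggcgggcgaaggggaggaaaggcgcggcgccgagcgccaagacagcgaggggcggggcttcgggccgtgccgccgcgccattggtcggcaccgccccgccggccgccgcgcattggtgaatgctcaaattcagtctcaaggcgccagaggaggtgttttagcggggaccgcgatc
Rbl1, chr2:157204485-157204784, minus strand: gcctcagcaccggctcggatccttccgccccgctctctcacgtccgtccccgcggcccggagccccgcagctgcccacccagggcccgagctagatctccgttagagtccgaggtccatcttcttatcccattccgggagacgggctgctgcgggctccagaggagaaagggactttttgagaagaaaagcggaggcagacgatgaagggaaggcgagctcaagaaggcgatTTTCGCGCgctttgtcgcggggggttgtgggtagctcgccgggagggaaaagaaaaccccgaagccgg
E2f8, chr7:48881547-48881846, minus strand: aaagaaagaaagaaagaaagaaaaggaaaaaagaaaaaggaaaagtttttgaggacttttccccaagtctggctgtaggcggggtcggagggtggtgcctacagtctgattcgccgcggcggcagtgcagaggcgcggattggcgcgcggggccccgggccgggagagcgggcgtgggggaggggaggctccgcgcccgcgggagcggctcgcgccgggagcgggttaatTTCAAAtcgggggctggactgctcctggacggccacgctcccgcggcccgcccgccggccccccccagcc

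An E2F word stood in 4 of the 9 windows of these genes, against 4.51% of 32851 mouse promoter windows and 7.65% of those of the tested genes. It lay at bases 25 and 40 in the upstream E2f2 window, at -11 and 4 in the upstream E2f3 window, at -198 in E2f7 and at -18 in Rbl1, counted to its first base with the start site as 1. No E2F word lay in the window of E2f1, E2f8 or Rbl2. The E2f1 window lies around a start site inside the counted gene, so the sequence upstream of that gene's first base was not searched. The E-box stood in 1 of the 9 windows, at -24 of the downstream E2f3 start. It stood in 7.15% of all windows and 9.95% of those of the tested genes. The MuvB element stood in 4, at -20 in E2f8, -23 in the upstream E2f3, -31 in the downstream E2f2 and -201 in Rbl2. It stood in 17.9% of all windows and 11.5% of those of the tested genes. The E2f8 and Rbl2 matches and the -11 and -198 E2F words are on the opposite strand. These matches are descriptions of letters and no binding was measured.

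Across the series, libraries held between 10046899 and 11925909 counts and Max was higher in every MAX restored library, 1327 ± 18.7 CPM (counts scaled to the library size after TMM) against 63.5 ± 2.47 CPM in Control (SD, n = 3 each). Control libraries still held 620 to 691 Max counts each, and gene counts do not show which exons those reads came from, so they neither check nor contradict the labelled loss of Max. Trp53 had 11.4 CPM with MAX restored and 12.5 CPM in Control and did not pass. Control 1 stood apart from the other Control libraries, with a chi-square per degree of freedom of 8.91 and 10.2 against them. Other replicate pairs had 1.24 to 1.50. Control 1 also had 0.996% of its counts in the ribosomal RNA precursor Rn45s, beside 0.109 to 0.187% in the other libraries. The chi-square was summed over genes that included Rn45s, so these signs are not separate. No chi-square without Rn45s was computed, so the departure of the other genes is smaller than these values by an unknown amount. Neuroendocrine markers of the labelled tumour type summed to between 9027 and 9349 CPM with MAX restored and between 8908 and 9130 CPM in Control. The 6 immune markers summed to 5.46 to 7.13 CPM with MAX restored and 2.38 to 4.70 CPM in Control, with Cd3e at 0 and C1qa called higher of 3 tested. The 7 fibroblast markers summed to 1.93 to 3.32 CPM with MAX restored and 1.67 to 1.88 CPM in Control, without overlap. Pdgfrb, the only 1 of them tested, was called higher. The 4 endothelial markers, none of them tested, summed to 1.43 to 1.96 CPM with MAX restored and 1.06 to 1.09 CPM in Control, without overlap, and Lum and Cdh5 were at 0. The 4 lung epithelial markers summed to 34.9 to 40.6 CPM with MAX restored and 36.4 to 38.5 CPM in Control. All 3 that were tested were called, Foxj1 2.29-fold higher, Ager 1.97-fold higher and Sftpc 1.21-fold lower. The part of these markers in the changes of the E2F and RB genes was not tested.

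Levels were compared between genes per exon length, as TPM (each count over the exon length, scaled to the same total in every library). Rb1 had the highest level of the family in both groups, 183 ± 1.46 TPM in MAX restored libraries and 195 ± 9.04 TPM in Control libraries (SD, n = 3 each), and was clear of the next gene in each. That level exceeded 90.7% of tested genes with MAX restored and 91.5% in Control. The gene was thus transcribed in a line whose label gives it as lost. Conditional Rb1 alleles remove part of the gene and can leave transcripts that encode no working protein, and counts summed over the 27 exons do not show which exons the reads came from. The label can therefore be neither checked nor contradicted by Rb1 counts.

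With MAX restored the order below Rb1 was E2f2 at 156 TPM, E2f8 at 119, E2f1 at 115 and E2f4 at 106, where E2f8 and E2f1 overlapped. Rbl1 (38.2 TPM) and Rbl2 (37.1 TPM) overlapped next. E2f7 (31.8 TPM), E2f5 (31.4 TPM) and E2f3 (29.5 TPM) followed and overlapped each other. Overlap here is of the ranges over the libraries of a group. Within every single MAX restored library, E2f8 lay above E2f1 and E2f7 above E2f3. In Control the order below Rb1 was E2f1 at 159 TPM, E2f2 at 142, E2f8 at 129 and E2f4 at 127, with E2f2 overlapping E2f8 and E2f8 overlapping E2f4. Rbl1 (54.9 TPM) and E2f5 (54.2 TPM) overlapped, E2f3 stood at 34.4 TPM, and Rbl2 (26.8 TPM) and E2f7 (24.4 TPM) overlapped at the bottom. Within every single Control library, E2f2 lay above E2f8 and Rbl2 above E2f7. Thus, in TPM, E2f2 took the place of E2f1 as the most abundant E2F in the MAX restored libraries, and Rbl2 reached the level of Rbl1. The order depends on the unit. In CPM, E2f2 lay above E2f1 in both groups, at 267 against 122 with MAX restored and 253 against 175 in Control.

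**Figure D1:**
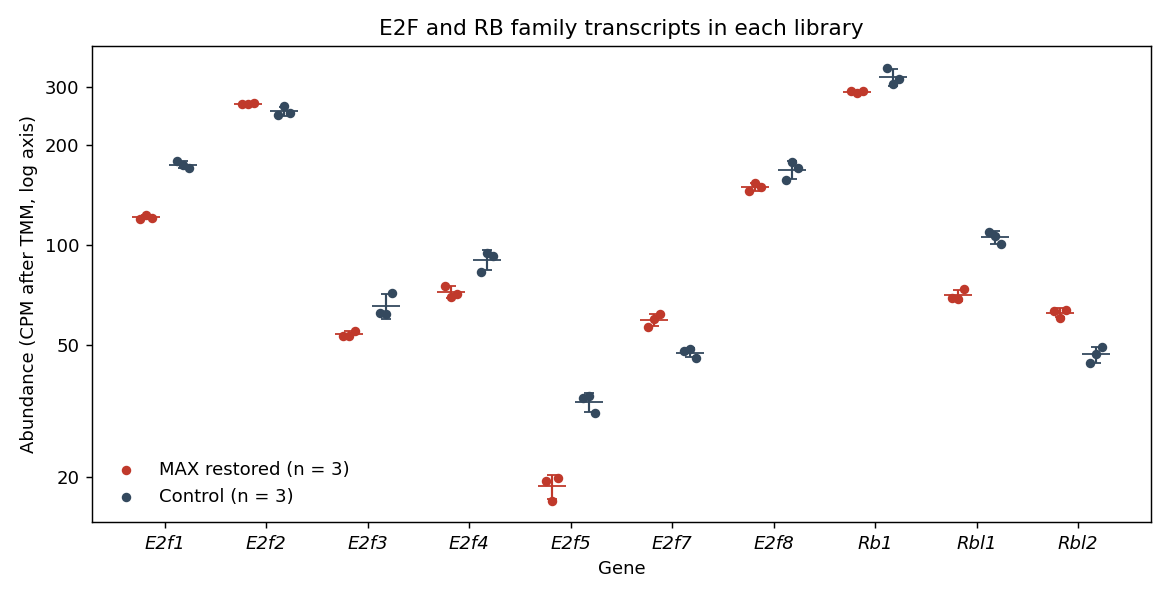
Abundance of each gene in CPM, on a log axis, in MAX restored (red, left of each pair) and Control libraries (dark blue, right); points are libraries, bars the mean and SD of 3. E2f5 and Rbl1 show the widest gaps downwards and Rbl2 and E2f7 stand higher with MAX restored.

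With MAX restored, 7 of the 10 genes fell, Rbl2 and E2f7 rose, and E2f2 did not pass the threshold. The test was edgeR's quasi-likelihood test, 3 MAX restored against 3 Control libraries, called at an adjusted p (Benjamini-Hochberg over all 12664 genes) under 0.05. Over all tested genes 63.5% were called, 31.2% higher and 32.3% lower, so that 9 called of 10 is read against a majority. In bulk RNA, fewer cells holding a transcript and less of it per cell cannot be told apart. In each of the 10 genes the groups were apart in CPM, 3 higher and 7 lower, as they were in 67.1% of all tested genes (33.2% higher and 33.8% lower). The median log2 fold change of the 10 was -0.22, beside -0.0036 over all tested genes, and their median absolute change of 0.32 lay near the 0.26 of all genes.

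Among the activators, E2f1 fell most. It had 120, 123 and 121 CPM in MAX restored libraries 1, 2 and 3, against 179, 175 and 171 CPM in Control libraries 1, 2 and 3. All MAX restored libraries lay far below all Control libraries, a 1.44-fold fall (log2 -0.53, SE 0.05, edgeR adjusted p = 5.46e-09). Its raw counts, between 1240 and 1827 per library, give it a counting error well under this difference. E2f1 spans chromosome 2 from 154385136 to 154395628 on the minus strand of mm9, with 8 exons.

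E2f3 fell less than E2f1, by 0.28 on the log2 scale (SE 0.06, edgeR adjusted p = 0.000458). It had 53.5, 53.4 and 55.3 CPM with MAX restored, against 62.5, 62.0 and 72.1 CPM in Control. Control 3 stood above the other Control libraries, and without it the log2 fold change was -0.21. The counts sum both start sites of the gene (chromosome 13, 29998444 to 30077932, minus strand), so the windows with the E2F words and with the E-box cannot be assigned separate levels.

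E2f2 was the activator that did not pass. It had 266, 266 and 268 CPM in MAX restored libraries, against 247, 263 and 250 CPM in Control libraries. The MAX restored values lay just above the highest Control value, and the log2 fold change was 0.07 (SE 0.04, 95% interval -0.01 to 0.16, edgeR adjusted p = 0.109). Under upper-quartile scaling it was called higher (log2 0.10, edgeR adjusted p = 0.0351), while its adjusted p over the alternatives ranged from 0.0351 to 0.244. The interval covers no change as well as a small rise, and it lies wholly above the change of E2f1.

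The summed level of the 3 activators was 300 ± 2.74 TPM in MAX restored libraries and 335 ± 6.15 TPM in Control libraries (SD, n = 3 each), without overlap. Their composition shifted. E2f2 made up 52.2, 51.7 and 52.0% of the activator level with MAX restored, against 41.5, 43.6 and 42.2% in Control. The ratio of E2f1 to E2f2 was 0.730, 0.748 and 0.731 with MAX restored and 1.17, 1.08 and 1.10 in Control. An exact two-sided permutation test of that ratio gave p = 0.1, the smallest that 3 against 3 allows.

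E2f5 showed the largest change of the family. It had 19.5, 17.0 and 19.9 CPM with MAX restored, against 34.7, 35.3 and 31.2 CPM in Control. Every MAX restored library was far under every Control library, a 1.79-fold fall (log2 -0.84, SE 0.08, edgeR adjusted p = 3.82e-08). The absolute change was larger than that of 88.7% of all tested genes. It was also the least abundant of the 10 in CPM, with 191 to 368 counts per library. Its exons (chromosome 3, 14578671 to 14606309, plus strand) share 21 bases with 1810022K09Rik, a gene of the opposite strand with 71 counts in all MAX restored libraries and 92 in all Control libraries. Since counting ignored strand and assigned no read to overlapping genes, that stretch is uncertain, but it is 1.2% of the exon length.

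E2f4, the more abundant partner of pocket proteins, fell 1.25-fold (log2 -0.32, SE 0.05, edgeR adjusted p = 3.72e-05). It had 75.6, 69.8 and 71.6 CPM with MAX restored, against 83.2, 94.9 and 92.9 CPM in Control. Control 1 was the lowest Control library and still above all MAX restored libraries. Because E2f5 fell further, the ratio of E2f4 to E2f5 in TPM was 3.40, 3.60 and 3.15 with MAX restored and 2.11, 2.36 and 2.61 in Control (exact two-sided permutation p = 0.1). Together the pair made up 23.4 ± 1.04% of all E2F transcripts with MAX restored and 27.1 ± 0.514% in Control (SD, n = 3 each, share of summed TPM of the 7 genes). E2f4 lies on chromosome 8 from 107821563 to 107829270, plus strand.

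The atypical E2Fs went opposite ways. E2f7 rose 1.25-fold (log2 0.33, SE 0.06, edgeR adjusted p = 4.18e-05), with 56.9, 60.0 and 62.1 CPM in MAX restored libraries, against 48.1, 48.8 and 45.8 CPM in Control libraries. E2f8 fell by 0.17 on the log2 scale (SE 0.05, edgeR adjusted p = 0.00686), with 146, 155 and 149 CPM with MAX restored, against 157, 179 and 171 CPM in Control. The gap for E2f8 was narrow: the highest MAX restored value lay just under Control 1, and in TPM the groups overlapped. Without MAX restored library 1 its call was lost (log2 -0.15, edgeR adjusted p = 0.0542, where the alternatives ranged from 1.93e-07 to 0.0542).

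The ratio of E2f8 to E2f7 in TPM was 3.81, 3.82 and 3.57 with MAX restored, against 4.85, 5.43 and 5.54 in Control (exact two-sided permutation p = 0.1). Their summed level did not separate the groups, at 145, 154 and 152 TPM with MAX restored and 142, 162 and 155 TPM in Control (exact two-sided permutation p = 0.8). E2f7 lies on chromosome 10 from 110182521 to 110224440 (plus strand) and E2f8 on chromosome 7 from 56121799 to 56136411 (minus strand), each with 13 exons.

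The pocket proteins p107 and p130 also went opposite ways. Rbl1 fell 1.50-fold (log2 -0.58, SE 0.05, edgeR adjusted p = 3.33e-09). It had 69.5, 69.0 and 73.9 CPM with MAX restored, against 110, 107 and 101 CPM in Control, with a wide gap between the groups. Rbl2 rose 1.33-fold (log2 0.42, SE 0.06, edgeR adjusted p = 2.39e-06), with 63.6, 60.5 and 63.9 CPM with MAX restored, against 44.2, 47.2 and 49.4 CPM in Control. All 3 MAX restored libraries lay above the highest Control library.

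The ratio of Rbl1 to Rbl2 in TPM was 0.994, 1.04 and 1.05 with MAX restored, against 2.26, 2.06 and 1.85 in Control (exact two-sided permutation p = 0.1). The pair had near-equal levels with MAX restored, whereas Rbl1 was the more abundant in every Control library. Their summed level differed less, 75.3 ± 2.52 TPM with MAX restored and 81.7 ± 0.899 TPM in Control (SD, n = 3 each). Rbl1 lies on chromosome 2 from 156971630 to 157030270 (minus strand) and Rbl2 on chromosome 8 from 93593956 to 93647743 (plus strand), each with 22 exons. Of the exon bases of Rbl2, 418 (8.49%) are shared with Aktip on the opposite strand, and reads there could be assigned to neither gene.

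Rb1 fell slightly, by 0.15 on the log2 scale (SE 0.04, edgeR adjusted p = 0.0041). It had 291, 288 and 291 CPM with MAX restored, against 343, 307 and 316 CPM in Control. The MAX restored libraries were all below the lowest Control library, and Control 1 was the highest. Without Control 1 the log2 fold change was -0.10. The gene spans chromosome 14 from 73595309 to 73725598 on the minus strand, and Lpar6, a gene inside its bounds, shares no exon base with it.

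**Figure D2:**
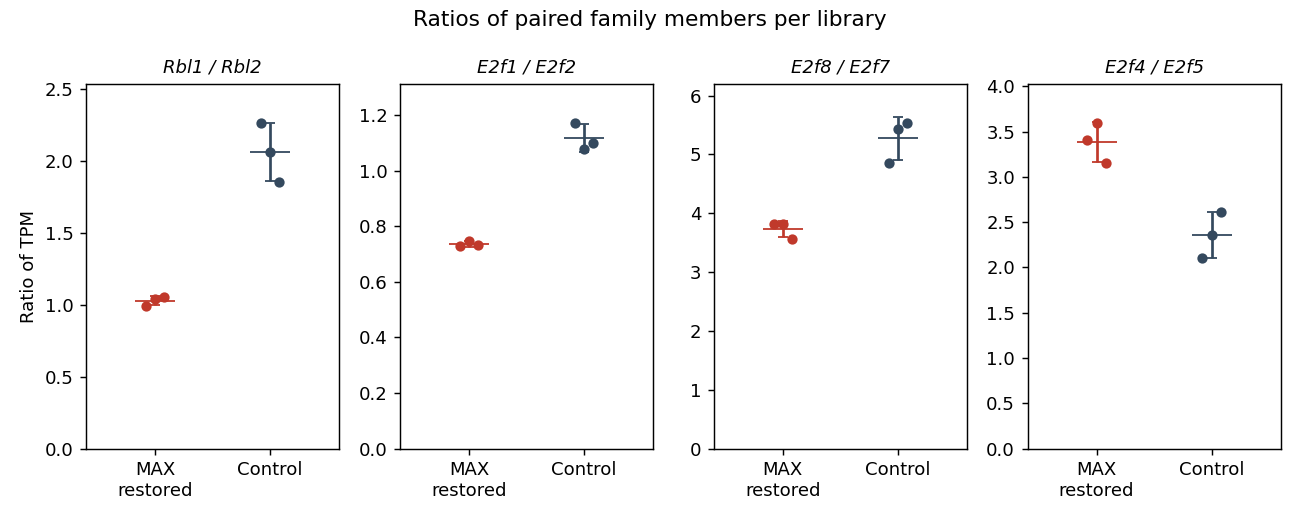
Ratios of TPM between paired family members in each MAX restored (red) and Control (dark blue) library, with the mean and SD of 3. Rbl1 over Rbl2 stood near 1 with MAX restored and between 1.85 and 2.26 in Control, and no pair of groups overlapped.

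Several stretches of this genome shift together between the groups, so each gene was set beside its 50 nearest tested neighbours on mm9. The neighbours of Rbl2, on chromosome 8 from 87784291 to 97220142, had a median log2 fold change of 0.30, with 35 called higher and 6 lower. Those of E2f2, on chromosome 4 from 134052676 to 137998180, had a median of 0.38, with 39 higher and 6 lower. Of 12656 placed genes, 3.76% had a neighbour median at least that of Rbl2 and 2.39% at least that of E2f2. Rbl2 exceeded its neighbours by 0.11 and E2f2 lay below its neighbours, at -0.31 relative to them.

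The other 8 genes had neighbour medians between -0.12 and 0.11. Relative to their neighbours E2f5 stood at -0.75, Rbl1 at -0.61, E2f1 at -0.46 and E2f4 at -0.43, while E2f7 stood at 0.27. E2f3 moved to -0.15, E2f8 to -0.19 and Rb1 to -0.14. The neighbours of E2f3 had a median of -0.12, in its own direction, and those of E2f4 a median of 0.11, opposite to its fall. The part of the neighbourhood in these changes was not tested.

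**Figure D3:**
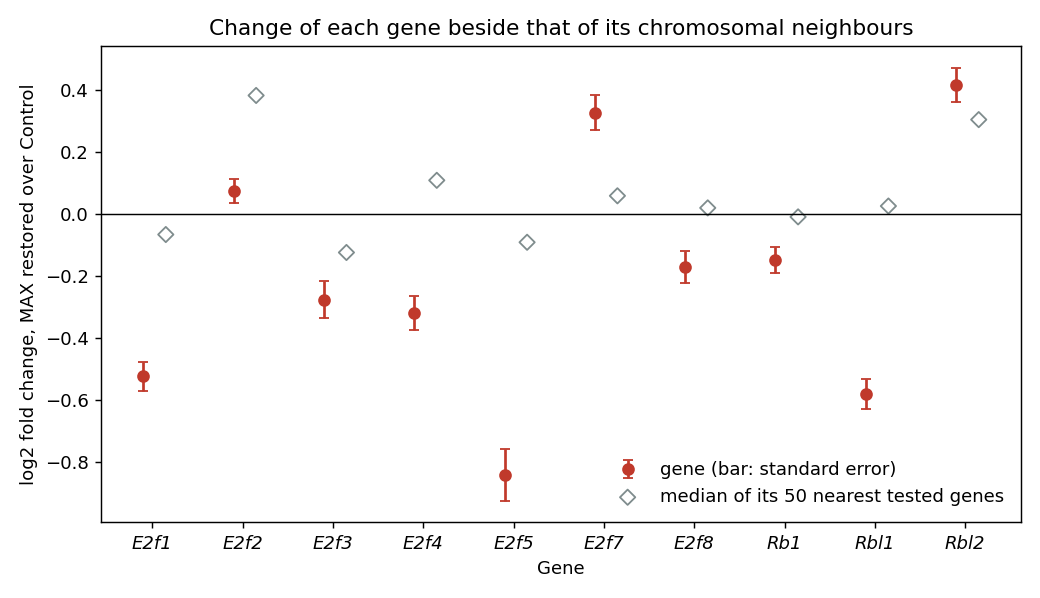
log2 fold change (MAX restored over Control) of each gene with its standard error (red) and the median log2 fold change of its 50 nearest tested genes (open diamonds). The diamonds of E2f2 and Rbl2 stand highest, at 0.38 and 0.30, and E2f2 itself lies at 0.07.

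The other genes of the pathway were counted from lists of known roles, each to be read against the 31.2% higher and 32.3% lower of all tested genes. The lists share Mybl2, Ccne1, Ccne2, Dnmt1 and Ccnf, so their counts are not independent of each other. Of the DP partners, Tfdp1 rose (192 ± 3.48 CPM with MAX restored, 171 ± 4.44 CPM in Control; log2 0.17) and Tfdp2 fell (111 ± 1.99 CPM with MAX restored, 135 ± 7.48 CPM in Control, SD, n = 3 each; log2 -0.29). E2f6, the family member that works with polycomb complexes, had 63.8 CPM with MAX restored and 64.2 CPM in Control and did not pass (log2 -0.01, edgeR adjusted p = 0.878). Of 8 genes of the MuvB complex and the factors that take it over, 6 fell (75%, against 32.3% of all tested genes) and none rose, with a median log2 fold change of -0.34. Mybl1 (-0.62), the MuvB subunit Lin9 (-0.49), Mybl2 (-0.48) and Foxm1 (-0.44) had the smallest p among them, and Lin37 (-0.07) and Lin52 (-0.15) did not pass.

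Most of the listed G1/S targets of E2F and G2/M targets of DREAM fell. Of 50 E2F targets of the G1/S transition 42 fell (84%) and 1, Tyms, rose by 0.13 with overlapping groups; the median was -0.32, beside 32.3% lower and a median of -0.0036 over all tested genes. The uracil glycosylase gene Ung fell by 1.16, the ribonucleotide reductase gene Rrm2 by 1.02 and the DNA ligase gene Lig1 by 0.47 on the log2 scale. Mcm2, Mcm5, Pcna, Ccne2, Msh6, Ezh2 and Usp1 were the 7 that did not pass. Of 32 G2/M targets of the DREAM complex 30 fell (93.8%) and none rose, with a median of -0.40, where Ube2c (-0.75), Kif11 (-0.70), Top2a (-0.64) and Nek2 (-0.63) had the smallest p. Without Control 1 both lists gave the same counts. Replication and mitosis lists were already known to fall in these libraries, so their direction is no independent support.

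Upstream of the pocket proteins, cyclin and kinase genes were lower in 3 of 7 tested, Ccna2 (log2 -0.49), Ccne1 (-0.34) and Cdk4 (-0.29), and higher in none. These 42.9% lie near the 32.3% lower of all tested genes and are no result about the list; Ccnd2, Cdk6 and Ccna1 were not tested. Of 7 inhibitor genes 4 rose, Cdkn1c (1.63), Cdkn1b (0.26), Cdkn2b (0.43) and Cdkn2d (0.52), and Cdkn1a (-0.32) and Cdkn2a (-0.13) fell, which makes 57.1% higher and 28.6% lower, beside 31.2% and 32.3% of all tested genes. Without Control 1 the call of Cdkn2a was lost, which left 1 lower. With 7 genes, these shares are too few for a result about the list. Among 14 chromatin cofactors of pocket proteins 6 rose, including Smarca2 (0.46), Sin3b (0.42), Suv420h1 (0.31) and Hdac3 (0.19), and 4 fell, Rbbp7 (-0.93), Rbbp8 (-0.54), Suv39h1 (-0.43) and Dnmt1 (-0.12). These shares, 42.9% higher and 28.6% lower, lie near those of all tested genes. Rbbp7, Sin3b and Hdac3 had neighbour medians of -0.59, 0.42 and 0.25, whose part was not tested. Sin3b lay level with its neighbours and Hdac3 below them.

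Of 7 genes that act in the turnover of E2F and pocket proteins, Cks1b (log2 -0.77) and Ccnf (-0.30) fell and Rbx1 (0.31) and Fzr1 (0.20) rose, 28.6% each way. Of 8 tested apoptosis genes under E2F control, 2 rose and 4 fell; Ppp1r13b rose by 0.40, and Bbc3 (-0.23), Apaf1 (-0.22) and Bcl2l11 (-0.16) were among those that fell. These 25% higher and 50% lower, like the turnover genes, are few genes near the 31.2% and 32.3% of all tested genes, and neither count is a result about its list. Among 131 tested genes of these lists, the nearest to E2f1 in profile over the 6 libraries were Prc1 and Bub1b, at a root mean square distance of 0.03 and 0.04 log2 units. Those nearest to Rbl1 were Cdk1 (0.03) and Rbbp8 (0.04), to E2f4 Aurka (0.03), to E2f5 Cks1b (0.06), to E2f8 Mki67 (0.05), to Rb1 Pola1 (0.01), to E2f3 Chaf1b (0.05) and to Rbl2 Ppp1r13b (0.04). With a pair of groups, nearness mostly reflects a fold change of like size.

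**Figure D4:**
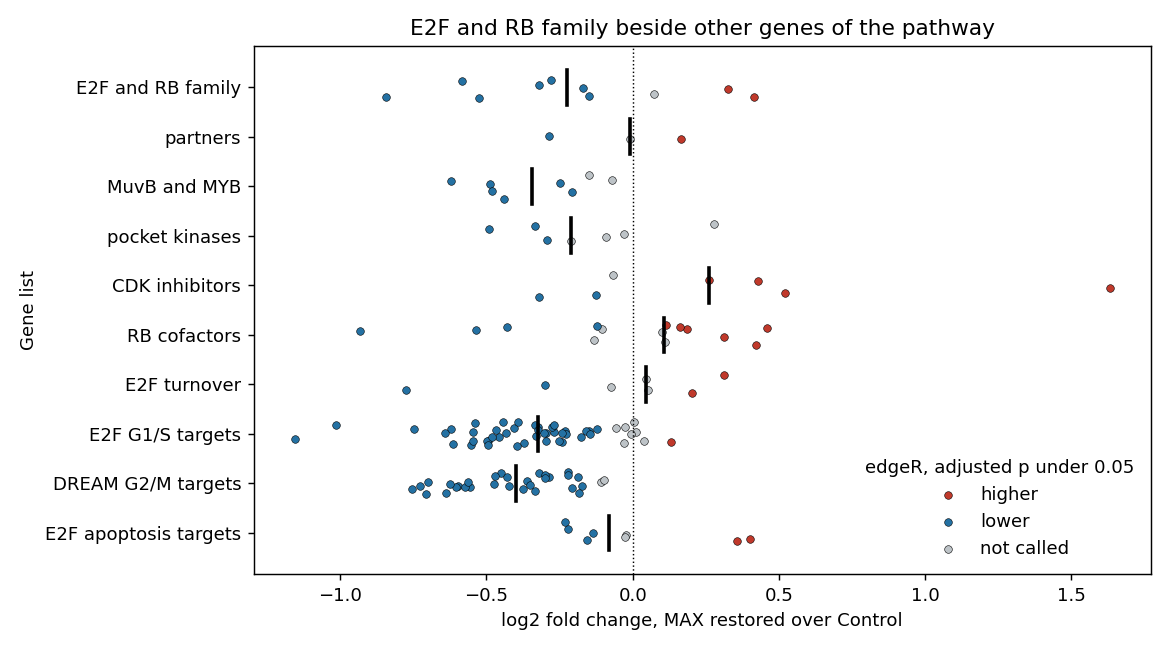
log2 fold change (MAX restored over Control) of each tested gene of the E2F and RB family and of 9 pathway lists; colours give the call and black bars the median of each list. The G1/S and G2/M target lists lie mostly below 0, with medians of -0.32 and -0.40. Of the CDK inhibitors 4 of 7 were called higher, where 31.2% of all tested genes were, too few genes for a result about that list.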

How the data were processed

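Messenger RNA was measured by RNA sequencing of 500 ng total RNA in 3 MAX restored and 3 Control libraries. The deposited values are raw counts per gene symbol, in a file for each library. Per the file headers, counting by the authors used featureCounts 1.6.0 without strand over UCSC mm9 exons and no option to count multi-mapping or overlapping reads. STAR 2.5.2a and bcl2fastq 1.8.4 are named in the submitters' processing notes. The files hold no other column of values per sample.

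Counts were read by symbol and grouped by the labels. Genes were kept by filterByExpr (minimum count 10), scaled by TMM and tested with edgeR 4.0.16 in R 4.3.3 by the two-sided quasi-likelihood test, group only, called at adjusted p under 0.05. A standard error is the size of the coefficient divided by the root of its F statistic, and 95% intervals use the fit's total degrees of freedom. CPM are counts scaled to the library size after TMM, and TPM are counts per exon length scaled to a common total. The biological coefficient of variation was 4.28%. Libraries hold 10046899 to 11925909 counts and no known added standard, so changes are relative to the other transcripts. The scripts were tested on simulated data. Alternatives were RLE, upper-quartile and total-count scaling, no filter and a CPM filter, a threshold of 0.01, limma 3.58.1 voom, DESeq2 1.42.0, the replicate number as a block, thinning to 10046899 counts, genomic neighbours and leaving out each library. Named genes are all family members, Max and Trp53, up to 4 genes of each list with the smallest p per direction, and the nearest profiles. Genes named because they did not pass were named after their values were seen. The members, lists and rules were chosen with earlier results of these data known. Some genes picked by these rules are not reported here.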

Additional observations from a re-analysis of the deposited data

How the results depend on the processing

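Over 16 alternatives with a test, all 7 genes called lower kept their direction, and all but E2f8 kept their call; E2f7 and Rbl2 stayed called higher in each. E2f2 passed under upper-quartile scaling only, which gave 3 family members higher and 7 lower. Leaving out each library in turn gave between 6 and 7 family members lower and 2 higher, and between 3618 and 4033 genes higher and 3640 and 4219 lower. DESeq2 called 3444 genes higher and 3576 lower, and limma voom 3949 and 4083; both called 2 family members higher and 7 lower. With no filter 4133 genes were higher and 4260 lower. Taking the median of 50 neighbours away reversed E2f2, to a log2 value of -0.31, and brought Rbl2 to 0.11 and E2f3 to -0.15; the cause was not tested.

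With the replicate number as a block 3941 genes were higher and 4093 lower, with 2 and 7 family members. Deviations from the group means of same-numbered libraries correlated at 0.0035, 0.0355 and -0.0241, and MAX restored library 1 correlated best with Control 2 (0.0178). With 3 libraries per group, such values near 0 cannot decide whether same-numbered libraries were prepared together. Without Control 1, an alternative for the lists chosen after seeing the data, the chromatin cofactors had 7 higher. Depth limits E2f5 most, which has under 400 counts per library.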
